A study of Mus musculus with 6 samples.

Results

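The genes described here are a list of 40 genes of the hypoxia response and of glycolysis, compared between megakaryocytes of leukaemic and of healthy mouse marrow. The list was chosen by function, with earlier results of these data known, so its counts are not those of a list drawn blindly. It has 3 classes: 8 genes of the hypoxia-inducible factor (HIF) and its control, 15 genes that HIF is known to switch on, and 17 glycolytic enzymes. A gene was taken from the rows of the deposited table whose single gene symbol in the array's annotation was a listed one, and where it had several rows the brightest over the 6 arrays was kept. This found 38 of the 40 genes, among 30063 genes tested, while the enzyme genes Gpi1 and Eno1 were not analysed here. Ero1l carries its newer symbol Ero1a in the annotation.

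HIF is a transcription factor made of an alpha subunit, encoded by Hif1a or Epas1, and a partner, encoded by Arnt. In the presence of oxygen, prolyl hydroxylases of the Egln family mark the alpha subunit and the product of Vhl sends it to the proteasome, while Hif1an blocks its coactivators. When oxygen falls the alpha subunit is spared and raises genes of glucose uptake, glycolysis and adaptation to low oxygen. Much of this control acts on the protein, which arrays of RNA do not measure. Bone marrow is a tissue of low oxygen, and megakaryocytes and platelets burn glucose through glycolysis.

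The 2 groups were AML, 3 arrays of megakaryocytes from mice in which the fusion oncogene MLL-AF9 had induced acute myeloid leukaemia, and control, 3 arrays of megakaryocytes from healthy mice. All mice were female and of strain C57, per the labels, which give no age, no animal numbers and no details of how the leukaemia was induced. The cells were sorted for high side scatter, high CD41 and a DNA content of at least 8N. Values are log2 levels, differences are AML minus control, ± is the SD with n = 3 arrays per group, and p-values are limma's after Benjamini-Hochberg adjustment over all genes, with a threshold of 0.05. Per the labels the replicates are biological, without saying whether each is 1 mouse. The p-values therefore rest on the spread among 3 samples a group, which may in part be technical, and that small number limits the precision.

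All 13 measured megakaryocyte markers, of 15 listed, stood above the background on every array, with Itga2b, the gene of CD41, at 9.22 ± 0.46 in AML and 9.04 ± 0.11 in control. Background here is a log2 level of 5.53, the 95th percentile of 1386 olfactory and vomeronasal receptor genes. Limma called 4.49% of all genes higher in AML and 6.25% lower. With the arrays centred on their medians these shares were 1.68% and 9.02%. Among the 13150 genes above the background 4.97% rose and 12.1% fell. The median difference over all genes was +0.11, so medians are also given relative to it. AML array 3 stood apart from the other arrays of its group in its dim genes, with a median of 3.85 over the receptor genes against 3.32 to 3.56 on the other 5 arrays.

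Transcripts of the 3 listed HIF subunits fell in the AML sorts, as did 5 of 15 HIF targets. Of the targets 1 rose, and 0 of 15 measured glycolytic enzymes passed the threshold in either direction. Over all genes 6.25% fell, 4.49% rose and 10.7% passed in either direction. Hif1a, the oxygen-regulated subunit, fell 2.29-fold. The fallen targets were Adm, Kdm3a, Ero1l, Mxi1 and Slc16a3, and the risen one Car9. Markers of neutrophils (10 of 12) and of monocytes and macrophages (11 of 14) fell in the same sorts, and their part in these falls was not tested. In such bulk samples fewer cells of a type and less RNA per cell cannot be told apart. The plot of member differences shows all 38 genes by class.

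**Figure D1:**
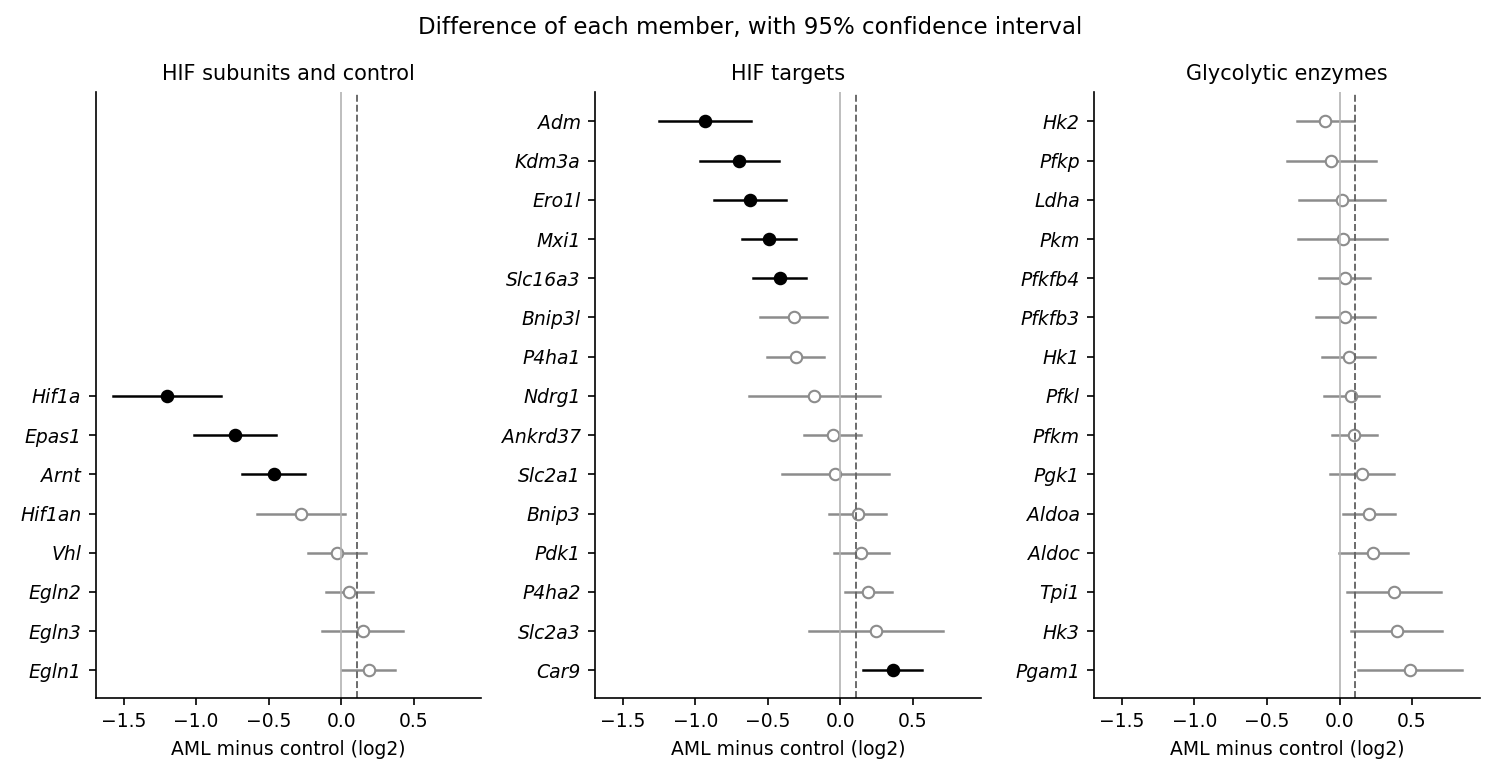
Difference in log2 level between AML and control for each of the 38 measured genes, with limma's 95% confidence interval as a bar, in 3 panels for HIF control, HIF targets and glycolytic enzymes. Filled black points passed an adjusted p of 0.05 and open grey points did not. The dashed line is the median over all genes, +0.11. The filled points lie at the low end of the first panels, but for Car9, and the enzyme panel has none.

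Hif1a stood at 7.31, 7.14 and 6.76 on AML arrays 1, 2 and 3 and at 8.10, 8.25 and 8.45 on the control arrays. Every AML value lay below every control value, with the lowest on AML array 3. The difference was -1.20 (SE 0.16, 95% CI -1.57 to -0.83, adjusted p = 0.00582), and it passed under all 18 alternatives run, with adjusted p from 0.00107 to 0.0403. Over all genes, 13.1% had every AML value below every control value and 28.2% had every one above, so that the groups of 41.3% did not overlap.

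Epas1, which encodes HIF-2 alpha, stood at 5.37, 5.42 and 5.24 in AML and at 6.31, 6.02 and 5.89 in control. The groups did not overlap, and the AML values lay below the background level, so the fall from 6.08 ± 0.21 was at least 1.46-fold (measured difference -0.73, adjusted p = 0.0129). Without control array 2 the adjusted p was 0.0549, the highest of 18 alternatives that began at 0.00364.

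Arnt, the shared partner of both alpha subunits, read 6.30, 6.14 and 6.03 in AML against 6.54, 6.64 and 6.69 in control. Its values did not overlap either, in a narrower step of -0.46 (SE 0.09), or 1.38-fold lower (adjusted p = 0.0250). Its call ended when AML array 2, control array 2 or control array 3 was left out (adjusted p = 0.0757 to 0.106), and in a fit over all rows of the table (0.0580), in a range of 0.0094 to 0.106 over 18 alternatives. Without control array 2, Hif1a alone of the 3 subunits passed.

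The genes that restrain HIF did not pass the threshold. Egln1, the main oxygen sensor among the prolyl hydroxylases, stood at 5.85 ± 0.05 against 5.66 ± 0.09 (adjusted p = 0.144), and its 3 AML values lay above all control values. Egln2 stood at 7.03 ± 0.03 against 6.98 ± 0.05 and Egln3, a hydroxylase that is itself raised by HIF, at 7.43 ± 0.19 against 7.28 ± 0.13, both with overlapping groups. Vhl, the substrate receptor of the ubiquitin ligase, read 5.10, 5.26 and 5.22 in AML and 5.11, 5.23 and 5.31 in control, and Hif1an stood at 4.31 ± 0.20 against 4.58 ± 0.16. Both of these last genes lay below the background level in both groups, so these arrays show little of them. Limma called 0 of these 5 genes, 1 of them (Egln1, higher) at an unadjusted p under 0.05, where 21% of all genes were higher and 11.8% lower, and their 95% intervals ran from -0.58 to 0.43.

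Of the 15 HIF targets 5 fell, or 33.3% beside 6.25% of all genes and 12.1% of those above the background, and 1 rose. The lower count was 7 when AML array 3 was left out, 2 for AML array 2, and 1 for each of control arrays 2 and 3. The plot of levels by array shows the 9 members past the threshold.

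**Figure D2:**
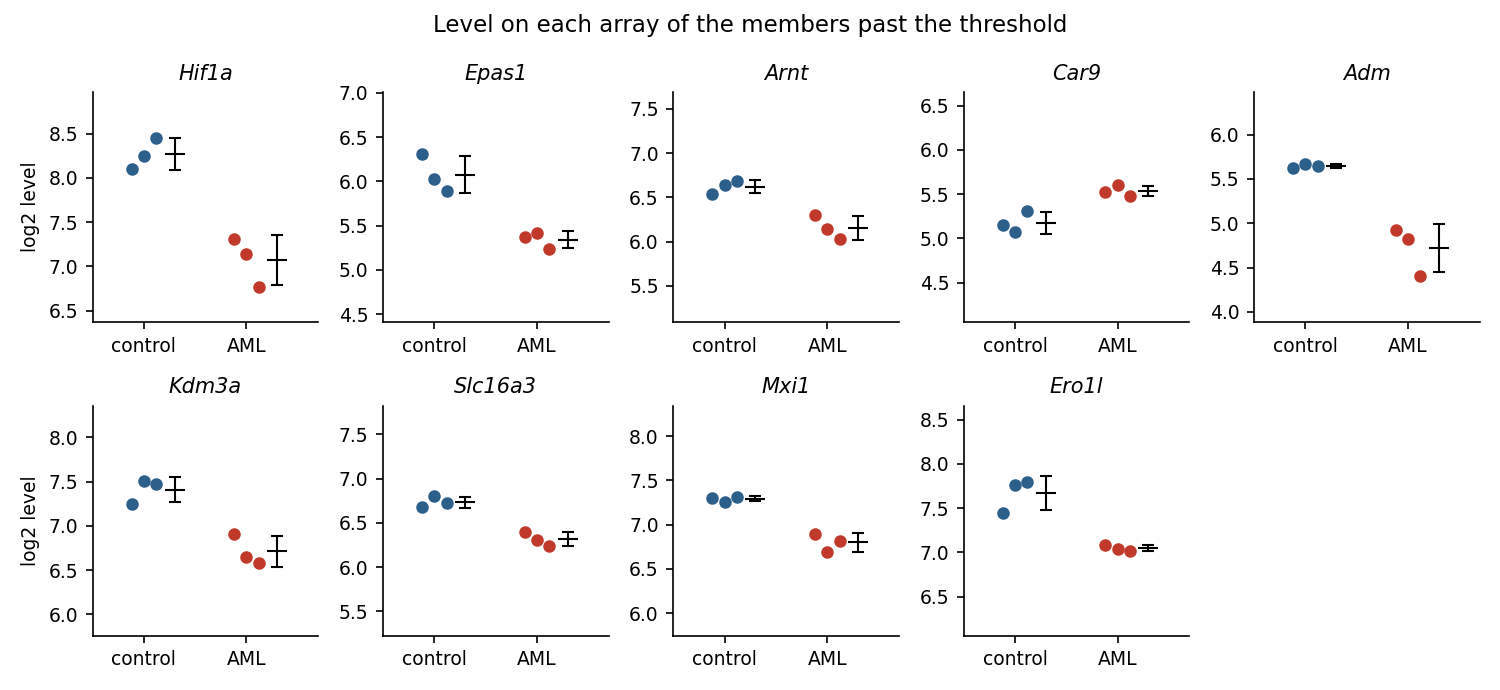
Log2 level on each array of the 9 genes past the threshold, with control arrays in blue and AML arrays in red. The bar beside each group is the mean ± SD of 3 arrays, and each panel spans the same log2 range around its own mean. The groups do not overlap in any panel, and Car9 is the panel in which AML is the higher group.

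Adm encodes adrenomedullin, a secreted peptide that widens vessels. It stood at 4.92, 4.83 and 4.41 in AML against a tight 5.62, 5.67 and 5.65 in control. The AML values were below the background level and the control values just above it, so the fall was at least 1.09-fold (measured difference -0.93, adjusted p = 0.00848). It passed in all 16 alternatives that kept the gene.

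Kdm3a, a histone demethylase, stood at 6.91, 6.65 and 6.58 in AML and at 7.25, 7.50 and 7.48 in control. It was 1.62-fold lower in AML with no overlap (difference -0.70, SE 0.12, adjusted p = 0.0140). Ero1l, the oxidase that forms disulphide bonds in the endoplasmic reticulum, read 7.09, 7.04 and 7.02 against 7.45, 7.76 and 7.80. It was 1.54-fold lower (difference -0.62, SE 0.11, adjusted p = 0.0151), and its AML values lay closer together than its control values. The calls of Kdm3a and of Ero1l, listed as Ero1a, ended when AML array 2 (adjusted p = 0.0516 and 0.0523), control array 2 (0.0694 and 0.0745) or control array 3 (0.0666 and 0.0641) was left out, the lowest values over 18 alternatives being 0.00469 and 0.00299.

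Mxi1, a repressor that competes with MYC for its partner, stood at 6.89, 6.69 and 6.82 in AML and at 7.30, 7.26 and 7.32 in control. That is 1.41-fold lower without overlap (difference -0.49, SE 0.08, adjusted p = 0.0119), and the call ended when control array 2 (adjusted p = 0.0563) or 3 (0.0585) was left out, from 0.00528 upwards over 18 alternatives. Slc16a3, which exports lactate from glycolytic cells, read 6.40, 6.31 and 6.24 against 6.68, 6.80 and 6.73. It was 1.34-fold lower with no overlap (difference -0.42, SE 0.08, adjusted p = 0.0188), and its adjusted p was 0.0625 when AML array 2 was left out, 0.0938 for control array 2 and 0.0753 for control array 3, against 0.00582 as the lowest of 18 alternatives.

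Car9, a carbonic anhydrase at the cell surface that is a common marker of low oxygen, was the target that rose. It stood at 5.52, 5.60 and 5.48 in AML and at 5.15, 5.07 and 5.30 in control, a measured difference of +0.36 (SE 0.09, adjusted p = 0.0420). The control values were below the background level and the AML mean barely above it, at 5.53, so the bound on the rise is at least 1.01-fold. The call of Car9 was lost under median centring (adjusted p = 0.155), quantile normalization (0.105) and cyclic loess (0.0941), and without any single array but AML array 3 (0.0605 to 0.158), and it passed in 7 of 17 alternatives, from 0.0111.

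The other 9 targets did not pass. Bnip3l, which marks mitochondria for removal and is prominent in maturing red cells, stood at 7.58 ± 0.15 against 7.90 ± 0.08 (adjusted p = 0.0783), and P4ha1, a collagen prolyl hydroxylase, at 6.23 ± 0.10 against 6.53 ± 0.08 (adjusted p = 0.0602), each with every AML value below every control value. Both passed downward under median centring (Bnip3l 0.0356, P4ha1 0.0289) and without AML array 3 (0.0354 and 0.0335), among 3 and 6 of 18 alternatives, up to 0.370 and 0.183. P4ha2 and Pdk1 had every AML value above every control value, at levels below the background. P4ha2 stood at 5.02 ± 0.02 against 4.83 ± 0.06 (adjusted p = 0.109) and Pdk1, the kinase that closes the entry of pyruvate into mitochondria, at 5.17 ± 0.11 against 5.02 ± 0.04 (adjusted p = 0.239). Bnip3, a relative of Bnip3l, also lay below the background, with overlapping groups. The stress gene Ndrg1 stood at 8.36 ± 0.35 against 8.54 ± 0.22 and Ankrd37 at 5.60 ± 0.12 against 5.65 ± 0.04, with overlapping groups.

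The glucose transporter genes overlapped between the groups. Slc2a1, the widespread carrier that HIF is known to raise, read 7.74, 7.78 and 8.29 in AML and 7.84, 8.08 and 8.00 in control. The value of AML array 3 was the highest of all 6 and the other AML values the lowest. The difference was -0.03 (95% CI -0.41 to 0.34, adjusted p = 0.886), and it took the other sign under quantile normalization (+0.12) and cyclic loess (+0.06). Slc2a3, a carrier of high affinity that platelets use, read 8.61, 7.94 and 8.44 against 8.30, 8.13 and 7.81 (difference +0.25, 95% CI -0.22 to 0.71, adjusted p = 0.390).

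HIF binds a short core, ACGTG or GCGTG, in the genes it controls. The promoters of the 5 fallen targets are shown so that these letters can be seen in place. They come from RefSeq (build GRCm38.p6), run from 250 bases before to 50 after the annotated start, are written 5′ to 3′ along the gene's own strand, and carry each match on either strand in capitals. CACGT and CACGC are the same cores on the opposite strand, and the palindrome CACGTG, also the core of MYC and MXI1 sites, would hold ACGTG on both strands. Of several windows of a gene the one with the most matches is given. A core stood in 1 of the 3 windows of Kdm3a and in 2 of the 3 windows of Mxi1. Adm, Ero1l and Slc16a3 had 1 window each.
Adm, chr7:110627407-110627706, plus strand: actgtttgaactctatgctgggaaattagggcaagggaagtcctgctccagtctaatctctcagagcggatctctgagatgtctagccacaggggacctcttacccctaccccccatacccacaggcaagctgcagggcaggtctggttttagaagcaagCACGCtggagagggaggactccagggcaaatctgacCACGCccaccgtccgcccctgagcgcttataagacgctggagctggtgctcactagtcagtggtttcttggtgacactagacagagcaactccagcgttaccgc
Kdm3a, chr6:71632868-71633167, minus strand: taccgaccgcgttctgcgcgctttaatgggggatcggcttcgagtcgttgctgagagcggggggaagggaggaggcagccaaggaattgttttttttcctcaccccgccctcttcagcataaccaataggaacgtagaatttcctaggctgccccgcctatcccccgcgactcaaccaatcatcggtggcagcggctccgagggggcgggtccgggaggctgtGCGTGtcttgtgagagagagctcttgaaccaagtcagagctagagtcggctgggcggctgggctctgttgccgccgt
Ero1l, chr14:45318523-45318822, minus strand: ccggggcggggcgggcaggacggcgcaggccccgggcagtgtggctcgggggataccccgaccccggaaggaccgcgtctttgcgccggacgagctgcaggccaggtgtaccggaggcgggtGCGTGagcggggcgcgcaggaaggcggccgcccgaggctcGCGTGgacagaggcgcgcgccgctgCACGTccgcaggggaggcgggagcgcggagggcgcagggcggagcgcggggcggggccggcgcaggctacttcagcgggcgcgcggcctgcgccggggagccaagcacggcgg
Mxi1, chr19:53329163-53329462, plus strand: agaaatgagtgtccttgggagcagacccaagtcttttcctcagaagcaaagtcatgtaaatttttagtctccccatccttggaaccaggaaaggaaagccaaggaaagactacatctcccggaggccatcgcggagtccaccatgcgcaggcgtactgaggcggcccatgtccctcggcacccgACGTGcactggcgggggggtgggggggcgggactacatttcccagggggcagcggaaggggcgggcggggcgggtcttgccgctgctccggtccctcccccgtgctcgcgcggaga
Slc16a3, chr11:120948817-120949116, plus strand: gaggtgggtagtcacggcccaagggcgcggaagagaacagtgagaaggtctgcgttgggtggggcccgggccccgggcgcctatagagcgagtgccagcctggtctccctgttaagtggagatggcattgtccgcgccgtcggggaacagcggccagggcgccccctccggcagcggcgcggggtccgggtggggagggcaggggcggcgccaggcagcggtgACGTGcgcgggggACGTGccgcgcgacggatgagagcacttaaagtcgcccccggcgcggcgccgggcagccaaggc

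The same letters also stood in promoters of genes that did not pass the threshold. Promoters were matched for 34 of the 38 measured genes, all but Epas1, Bnip3l, Ndrg1 and Slc2a3. A core stood in at least 1 window of 12 of 12 targets, of 14 of 15 enzymes and of 5 of 7 control genes, beside 9377 of 18008 tested genes, or 52.1%. By window it was 76.5% of the targets' windows, 80% of the enzymes' and 75% of the control genes'. That stood beside 49% of the 21926 windows of tested genes and 43.8% of all 32851 windows. Ldha and Pgk1 carry a core in their promoters too. A match of 5 letters is a description of the sequence, not a measured site.

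Glycolytic enzymes stood near or slightly above their control level, and none of the 15 measured passed limma's test (4 were higher and 0 lower at an unadjusted p under 0.05, beside 21% and 11.8% of all genes). Hexokinases trap glucose in the cell. Hk1 stood at 5.93 ± 0.10 against 5.86 ± 0.04, Hk2, the isoform that HIF is known to raise, at 6.08 ± 0.09 against 6.18 ± 0.08, and Hk3, an isoform of myeloid cells, at 6.74 ± 0.26 against 6.35 ± 0.08. Hk3 was higher on all AML arrays, at 6.88, 6.90 and 6.44 against 6.25, 6.39 and 6.39, by 1.31-fold (adjusted p = 0.0992), and passed without AML array 3 (0.0105), in 2 of 18 alternatives that ranged from 0.00968 to 0.291.

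Phosphofructokinase is the step at which the pathway is regulated. Pfkl stood at 6.43 ± 0.09 against 6.35 ± 0.07, Pfkp, the platelet type, at 6.90 ± 0.10 against 6.95 ± 0.24, and Pfkm, the muscle type, below the background level in both groups. Pfkfb3 and Pfkfb4 make the sugar phosphate that activates phosphofructokinase and are known HIF targets. They stood at 6.52 ± 0.07 against 6.48 ± 0.11 and at 5.82 ± 0.08 against 5.79 ± 0.04, differences of +0.04 each, with 95% intervals of -0.16 to 0.24 and -0.14 to 0.21.

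Aldoa, Tpi1 and Pgam1, from the steps after phosphofructokinase, stood above control without passing. Aldoa, the aldolase of muscle and blood cells, stood at 7.54 ± 0.07 against 7.34 ± 0.07 (adjusted p = 0.120) and its relative Aldoc lay below the background level. Tpi1, which interconverts the triose phosphates, read 9.13, 8.79 and 8.86 in AML against 8.32, 8.60 and 8.74 in control (difference +0.38, adjusted p = 0.115). Pgam1, a phosphoglycerate mutase, read 10.03, 9.63 and 9.44 against 9.08, 9.29 and 9.27 (difference +0.49, 1.40-fold, adjusted p = 0.0838). In each of these 3 genes every AML value lay above every control value. Without AML array 3 Pgam1 passed (adjusted p = 0.0367), as it did under cyclic loess (0.0476) and in 3 of 18 alternatives in all, from 0.0179 to 0.227. Aldoa passed upward under quantile normalization (0.0261) and cyclic loess (0.0486), with 0.598 as its highest adjusted p of 18. Tpi1 passed upward under quantile normalization (0.0269) and array weights (0.0465), with 0.364 as its highest.

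The values of Pgk1, Pkm and Ldha overlapped between the groups. Pgk1, a kinase that yields ATP and a textbook HIF target, read 8.10, 8.00 and 8.15 in AML and 7.77, 7.97 and 8.05 in control (difference +0.15, adjusted p = 0.277). It passed upward under quantile normalization (adjusted p = 0.0444), 1 of 18 alternatives that reached 0.894. That row is named for chromosome 12, whereas Pgk1 lies on chromosome X, and the row named for X stood at 7.24 ± 0.14 against 7.15 ± 0.19 (difference +0.09, adjusted p = 0.620). Pkm, pyruvate kinase, stood at 7.68 ± 0.13 against 7.66 ± 0.22. Ldha, which turns pyruvate into lactate and is another textbook HIF target, read 7.89, 7.69 and 8.08 in AML against 7.79, 7.77 and 8.05 in control. Its difference was +0.02 with a 95% interval of -0.28 to 0.32 (adjusted p = 0.927). A true difference within that interval, in either direction, is compatible with these 3 arrays per group.

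**Figure D3:**
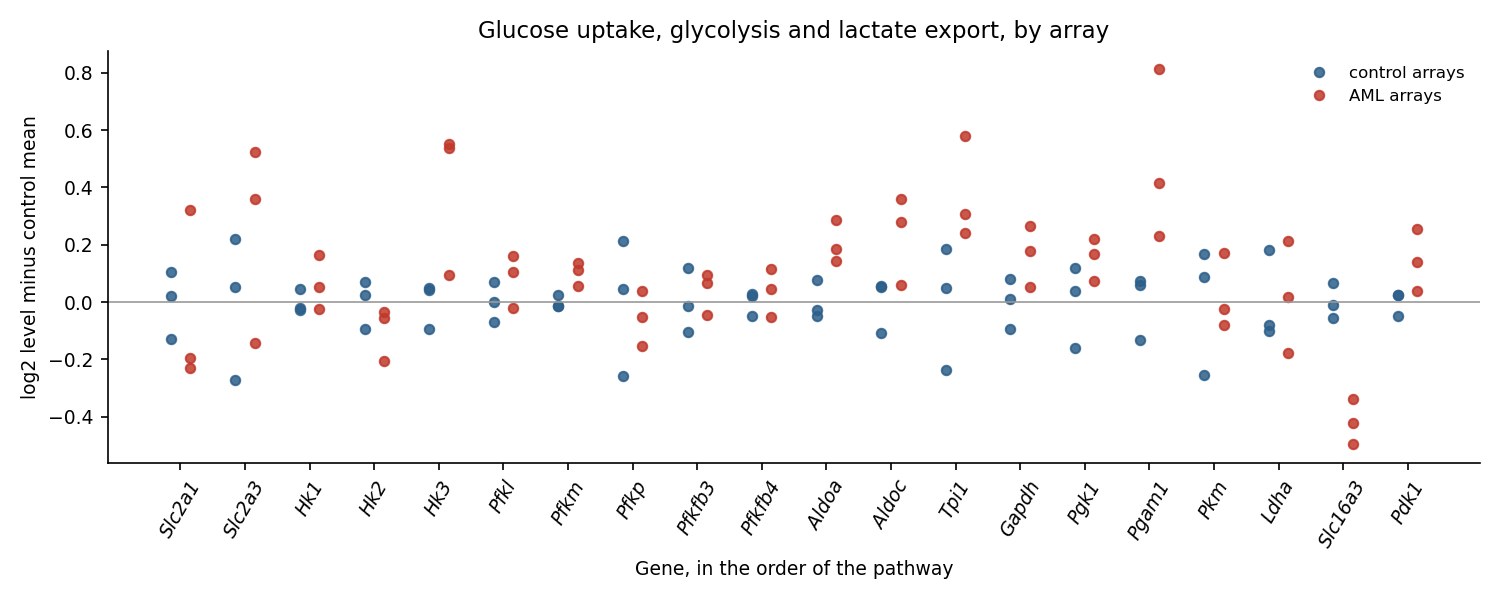
Log2 level of each gene on each array minus the gene's mean over the control arrays, in pathway order from glucose uptake (Slc2a1) to lactate export (Slc16a3) and the pyruvate switch (Pdk1), with control arrays in blue and AML arrays in red. Slc16a3 is the gene whose AML points all lie well below 0. Hk2 also has all AML points below 0. Hk3, Pfkm, Aldoa, Aldoc, Tpi1, Gapdh, Pgk1, Pgam1 and Pdk1 have all AML points above 0, with Pgam1 at +0.49 on average.

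Set side by side, the classes differed in their counts. Of the 23 HIF control and target genes 8 fell and 1 rose, or 34.8% and 4.35% beside 6.25% and 4.49% of all genes. Of these 23 genes 16 had a mean above the background, where 12.1% of all such genes fell and 4.97% rose. In 43.5% of the 23 every AML value lay below every control value, beside 13.1% of all genes. Of the 15 enzymes 0 fell, and in 6 every AML value lay above, or 40% beside 28.2% of all genes. The median difference was -0.15 for HIF control, -0.18 for HIF targets and +0.08 for the enzymes, which relative to all genes is -0.26, -0.29 and -0.03. The enzymes' value turned to +0.10 under quantile normalization and cyclic loess, while those of HIF control and targets stayed below 0 (-0.30 and -0.14). The enzymes with a difference above 0 numbered 13 of 15 as deposited, 12 under quantile normalization and under cyclic loess, and 6 after median centring. Centring subtracts 1 constant from each array, and over all genes it moved those above 0 from 20669 to 13948 of 30063. When AML array 3 was left out 2 enzymes were higher and 0 lower.

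On single arrays, the picture depended on the measure. The median level of the 15 targets ran from 6.31 to 6.40 in AML and from 6.68 to 6.80 in control, and that of the 8 control genes from 5.96 to 6.05 and from 6.29 to 6.42. Neither overlapped between the groups, whereas the enzymes' median did, at 6.58 to 6.90 in AML and 6.42 to 6.60 in control. The targets' median was the value of Slc16a3 on every array but AML array 3, where it was that of P4ha1. The median of the control genes lay midway between Arnt and Egln1 in AML and between Arnt and Epas1 in control. These separations thus rest on a few genes, not on the whole classes. Each gene was also set against its own control mean, so that its control deviations cancel out by construction. The targets' median deviation then ran from -0.38 to -0.11 in AML and from -0.03 to +0.02 in control. These ranges did not overlap, but the centring on the control arrays favours such a separation. By this measure the HIF control genes overlapped, with AML at -0.216, -0.216 and -0.0268 and control at -0.0673 to +0.0936. The enzymes did not, at +0.0945 to +0.161 in AML and -0.0923 to +0.0562 in control, where the median over all genes was +0.0811 to +0.101 and -0.0173 to +0.0129.

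Related genes were compared within each array, since 2 rows of an array share its scaling. For 10 pairs the change of the first minus that of the second was tested by an exact two-sided permutation over arrays, where 3 against 3 cannot give a p below 0.1. In 3 pairs the AML and control values did not overlap (exact p = 0.1, adjusted p = 0.333 over the 10 pairs). Hk2 moved by -0.49 relative to Hk3, P4ha1 by -0.50 relative to P4ha2 and Bnip3 by +0.44 relative to Bnip3l, but P4ha2 and Bnip3 lay below the background level, so the sizes of those pairs are not measured folds. The pairs Pfkfb3 and Pfkfb4, and Egln1 and Egln3, differed by 0.00 and +0.04 with overlapping values. No relative change is read for Hif1a and Epas1 or for Aldoa and Aldoc, since Epas1 in AML and Aldoc in both groups lay below the background level.

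Other genes of these pathways, from lists chosen by function with earlier results of these data known, moved both ways. Of 30 further HIF targets 3 rose and 7 fell, or 10% and 23.3% beside 4.49% and 6.25% of all genes. Mif, a cytokine gene, rose 1.72-fold from 9.56 ± 0.06 to 10.35 ± 0.06 (adjusted p = 0.00168), and Fam162a, a mitochondrial gene of the response to low oxygen, rose 1.77-fold from 7.32 ± 0.12 to 8.14 ± 0.23 (adjusted p = 0.0116). Stc2 rose by +0.50 with both groups below the background level, and was called under none of the 3 other scalings (quantile normalization, median centring and cyclic loess). The rises of Mif and Fam162a and the falls of Hmox1 and Anxa2 were called under all 3, and that of Fam162a ended when control array 2 was left out (adjusted p = 0.0572, in a range of 0.00121 to 0.0579).

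Hmox1, heme oxygenase, fell 2.63-fold from 8.31 ± 0.13 to 6.91 ± 0.40 (adjusted p = 0.00746), and Anxa2, annexin A2, fell 2.27-fold from 8.26 ± 0.21 to 7.08 ± 0.05 (adjusted p = 0.00175). Bhlhe40, a transcriptional repressor of the clock, fell by 0.74, the histone demethylase Kdm6b by 0.60, the transcription factor Nfil3 by 0.48 and Rora, a nuclear receptor, by 0.46, with both Rora means below the background level. Bhlhe40 passed in 10 of 18 alternatives, from 0.00311 to 0.145, and not under quantile normalization (adjusted p = 0.0614) or cyclic loess (0.0603). Named here are the 6 fallen genes with the smallest p. Leaving out control array 2 gave 1 higher and 2 lower, control array 3 gave 2 and 2, AML array 1 or AML array 2 gave 2 and 3, and AML array 3 gave 5 and 6. Vegfa, the vessel growth factor and best known HIF target, stood at 7.88 ± 0.23 against 8.40 ± 0.23 with no overlap (difference -0.52, adjusted p = 0.0733). It passed in 4 of 18 alternatives, 0.0260 to 0.225, among them leaving out control array 1 (0.0462).

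Beyond the listed enzymes, 2 of 19 genes of glucose use rose and 4 fell, or 10.5% and 21.1% beside 4.49% and 6.25% of all genes. Slc16a7, a second carrier of lactate and pyruvate, fell 1.51-fold from 6.23 ± 0.04 to 5.63 ± 0.05 (adjusted p = 0.00346) and passed in all 18 alternatives. The sugar carrier gene Slc2a6 fell by 0.69 and Pdk3, a relative of Pdk1, by 0.38, while Bpgm fell by 0.36 below the background level. Pdk3 passed in 9 of 18 alternatives, from 0.00424 to 0.131, and not under quantile normalization (adjusted p = 0.131) or cyclic loess (0.106). Tigar, a phosphatase that slows glycolysis, rose by +0.43 and Pgam2 by +0.29 (adjusted p = 0.04996), with means below the background level in both groups, and 0 of the list rose under median centring. When any array but AML array 3 was left out 0 rose, and 1 fell when it was AML array 2, control array 2 or control array 3, and 2 when it was control array 1. Gapdh, the enzyme between aldolase and Pgk1, stood at 10.95 ± 0.11 against 10.78 ± 0.09 (adjusted p = 0.219). Of 6 measured genes of the pentose phosphate pathway limma called 0 (1 higher and 1 lower at an unadjusted p under 0.05, beside 21% and 11.8% of all genes).

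Of 12 further genes of HIF control 2 fell and 0 rose, or 16.7% and 0% beside 6.25% and 4.49% of all genes. At an unadjusted p under 0.05, 2 were higher and 3 lower, beside 21% and 11.8% of all genes. In 4 every AML value lay above every control value and in 4 below, beside 28.2% and 13.1% of all genes. Hif3a and Arnt2, further subunit genes, were among those above (limma's adjusted p = 0.135 and 0.180). Both Arnt2 means and the control mean of Hif3a lay below the background level. Crebbp, a coactivator that binds HIF, fell 1.46-fold from 9.01 ± 0.12 to 8.46 ± 0.12 (adjusted p = 0.0178), and Siah1a, a ubiquitin ligase that acts on the hydroxylases, fell 1.35-fold from 6.69 ± 0.14 to 6.26 ± 0.08 (adjusted p = 0.0333). Crebbp did not pass when control array 2 (adjusted p = 0.0835) or control array 3 (0.0774) was left out, in a range of 0.00415 to 0.0835 over 18 alternatives. Siah1a did not pass when any 1 of the 6 arrays was left out (0.0503 to 0.0999), in a range of 0.0167 to 0.110.

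Many markers of other marrow cells were also lower in AML, where 6.25% of all genes fell and 4.49% rose. Of 14 monocyte and macrophage markers 11 fell and 0 rose, and their summed level, as log2 of the sum of linear values, ran from 12.74 to 13.13 in AML and from 13.35 to 13.51 in control. Of 12 neutrophil markers 10 fell and 0 rose, with sums of 12.90 to 13.23 against 14.47 to 14.70, and of 10 basophil, mast cell and eosinophil markers 7 fell and 0 rose, with sums of 12.59 to 12.93 against 13.45 to 13.73. Erythroid markers fell in 3 of 7, B cell markers in 4 of 8 and endothelial and stromal markers in 4 of 10, where 1 rose. The megakaryocyte markers, 0 of 13 past the threshold (2 higher and 0 lower at an unadjusted p under 0.05, beside 21% and 11.8% of all genes), had sums of 13.81 to 14.31 against 13.84 to 14.24. Markers below the background level on all arrays were Ms4a2, Klf1, Rhag, Igll1, Ms4a1 and Lepr, and none of the megakaryocyte, monocyte or neutrophil lists. Hif1a is known to be expressed in myeloid cells, and the part of such cells in the falls of the HIF genes was not tested.

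**Figure D4:**
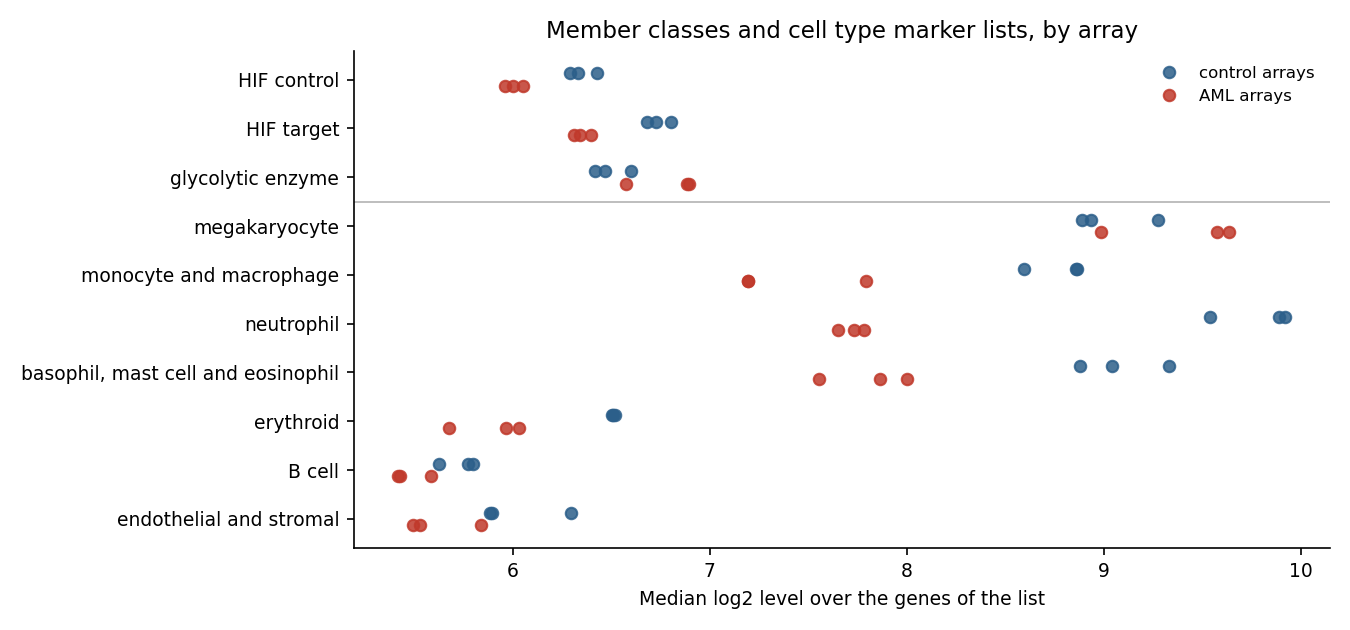
Median log2 level over the genes of each list on each array, with control arrays in blue and AML arrays in red. The 3 upper rows are the hypoxia and glycolysis classes and the 7 lower rows are marker lists. The medians of the HIF classes and of all marker lists but the megakaryocyte one lie lower on every AML array than on any control array. Those of the enzymes and the megakaryocyte markers overlap. A median shows the middle gene or genes of a list, not each of its genes.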

How the data were processed

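Total RNA of each sort (250 ng, biotin-labelled) was measured on an Affymetrix array that covers whole transcripts, per the labels. The authors deposited log2 values, and the submitters' processing notes name RMA, a method that corrects background, quantile-normalizes probes and summarises them by row; its version, and the genome build of the array design, are not given in the sources used here. Since RMA gives the probes of all arrays a common distribution, a shift shared by most genes cannot be measured.

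Of 72688 rows, 30604 had 1 gene symbol and 2146 several, which named no gene. Symbols were updated through RefSeq (GRCm38.p6, names only; 22815 by gene number, 7479 by symbol, 308 by synonym, 2 unmatched), and the brightest row of each of 30063 genes was kept. All genes were fitted with limma 3.58.1 (lmFit and eBayes, R 4.3.3), AML against control, two-sided, with no filter; the fit was tested on simulated data. Pairs used scipy 1.17.1. Same-numbered arrays of the groups did not deviate together (r = -0.36, 0.14 and -0.29 over genes), so numbers were not used as pairs. No detection call was used, so background was set by receptor genes.

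The members, lists and classes were chosen with earlier results of these data known. All members were named, with up to 6 pathway genes past the threshold per list and direction (those of smallest p), Gapdh, Vegfa and Itga2b. Alternatives covered normalization, filters, weights, rows of a gene and leaving out each array; the rows on a gene's own chromosome were added after seeing the data.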

Additional observations from a re-analysis of the deposited data

How the results depend on the processing

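Hif1a and Adm passed under each alternative that kept them, and the falls of Hif1a, Epas1, Arnt, Adm, Kdm3a, Ero1l, Mxi1 and Slc16a3 kept their direction in all. The other called members each lost the call in some alternative, and the reason was not tested. There were 3 arrays per group, and 29 of the 38 genes had a mean over the arrays above the background level.

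Same-numbered arrays share only a number. With the replicate number as a block, 206 genes were higher and 861 lower, 0 HIF targets were higher and 1 lower, 2 HIF control genes were lower (Arnt did not pass, adjusted p = 0.0988), and the counts of higher and lower genes were 0 and 1 for glucose use, 1 and 3 for further targets, and 0 lower for further HIF control. With array weights 4839 genes were higher and 3014 lower, 2 HIF targets and 4 enzymes were higher, 5 further targets and 1 further control gene were higher, the pentose phosphate list had 1 higher and 1 lower, and the median of HIF targets was -0.29. Quantile normalization gave 0 targets and 3 enzymes higher, 1 glucose use gene higher and a HIF control median of -0.29. Median centring gave 505 genes higher, 0 targets and 0 glucose use genes higher, 1 pentose phosphate gene lower, and medians of -0.27 for HIF control and -0.30 for targets. Cyclic loess gave 0 targets, 2 enzymes and 1 glucose use gene higher, 1 pentose phosphate gene lower and a HIF control median of -0.29. Counted by row and not by gene, 764 rows were higher, with 2 HIF control genes lower, 0 targets and 0 glucose use genes higher, and 1 glucose use, 1 further control and 3 further target genes lower. With a 1.5-fold minimum 439 genes were higher and 1126 lower, with 0 targets higher and 3 lower, 0 and 2 for glucose use, 0 further control genes and 4 further targets lower. Restricted to genes at or above the median level, 1 glucose use gene was higher and the targets' median was -0.24; above the receptor level these were 1 and -0.31, with 0 targets higher; above the lower tertile the HIF control median was -0.0271. These filters drop dim members.

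Leaving out each array in turn, 185 to 1639 genes were higher (647, 402, 185 and 236 for AML arrays 1 and 2 and control arrays 2 and 3) and 782 to 1967 lower (1071, 782 and 822 for AML array 2 and control arrays 2 and 3). HIF control genes lower numbered 1 to 3, targets 0 to 1 higher and 1 to 7 lower, enzymes 0 to 2 higher. Glucose use genes numbered 0 to 2 higher and 1 to 4 lower, further control genes 0 to 1 lower, further targets 1 to 5 higher and 2 to 8 lower. Medians ran from -0.213 to -0.0876 for HIF control and from -0.361 to -0.0985 for targets.

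Sign changes were all in genes not past the threshold, and the cause was not tested. Under median centring the difference was -0.0631 for Egln2, -0.00142 for Bnip3, -0.0558 for Hk1, -0.0398 for Pfkl, -0.0192 for Pfkm, -0.0815 for Pfkfb3, -0.0847 for Pfkfb4, -0.0988 for Pkm and -0.103 for Ldha. Under quantile normalization it was +0.122 for Slc2a1, -0.00849 for Pfkm, +0.0415 for Pfkp and -0.0224 for Pfkfb4, and under cyclic loess +0.0613, -0.00800, +0.00307 and -0.0251 for these. Leaving out an array gave ranges of -0.0821 to +0.0211 for Vhl, -0.212 to +0.0633 for Slc2a1, -0.185 to +0.0506 for Pfkp, -0.0136 to +0.0977 for Pfkfb3, -0.00374 to +0.0797 for Pfkfb4, -0.106 to +0.106 for Pkm and -0.0796 to +0.116 for Ldha.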

Other observations

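Some rows named for a listed gene together with another symbol were in no comparison above. A row shared by Pgam1 and its pseudogene Pgam1-ps2 stood at 10.71 ± 0.30 in AML and 10.24 ± 0.16 in control, and a row shared by Pgam1 and Gm8910 at 9.47 ± 0.34 and 8.89 ± 0.25. A row shared by Hif1a and Gm15283 stood at 4.69 ± 0.31 against 4.41 ± 0.12, where the Hif1a row itself was lower in AML. That shared row lay below the background level on every array, so its difference is not a measured change of Hif1a. In a fit over all rows of the table these differences were +0.47, +0.59 and +0.27 (limma's adjusted p = 0.153, 0.140 and 0.326).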
